A study of Homo sapiens with 11 samples.

Results

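The RNA of 2 knockout lines of the same enzyme was set side by side, to ask how far separately derived lines without that enzyme differ from each other. The comparison rests on 4 of the 11 libraries of the study, 2 mRNA-seq libraries of each knockout, chosen by their labels. All libraries came from HEK293T, an established human line of embryonic kidney origin that carries SV40 large T. The labels give the genetic backgrounds as WT, CSAM-KO#1 and CSAM-KO#2, here wild type, knockout 1 and knockout 2. They name no further allele, treatment or time, and do not state whether a knockout is a single clone or whether replicates came from separate cultures. P-values therefore measure only the spread between these libraries, which may be technical. The 2 wild-type RNA libraries were labelled WT#1 and WT#2. They were used to see which knockout lay away from wild type and to help estimate the spread. Footprint libraries of the same knockouts, 4 in all, served as a second readout.

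CSAM, whose current symbol is PCIF1, is the methyltransferase that acts on capped messenger RNA whose first transcribed base is an adenosine with a methylated ribose, and methylates the base of that adenosine at N6. The product, m6Am, marks the start of many vertebrate messenger RNAs. The enzyme binds the phosphorylated tail of RNA polymerase II and so acts on transcripts as they are made. Lines that lack it lose m6Am at transcript starts.

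The deposited tables give counts for transcripts under UCSC identifiers and do not pair them with gene names. Of 182398 identifiers, 4 matched a RefSeq synonym, and 0 of those had enough reads to be tested. Transcripts are therefore described by identifier, by listed length (a column of the tables whose unit is not stated) and by line in the table, and neither the PCIF1 transcript nor markers of the kidney line were checked. Rows with identical counts in all 11 libraries were merged into features. Neighbouring lines often repeat part of the same reads, so calls were also counted over blocks of 20 lines. Features called here are not separate genes. Merged RNA totals were 40346318 and 49580593 counts in knockout 1 and 46118849 and 44638751 in knockout 2. Wild type was deeper, at 63551193 and 51327023.

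The knockouts stood further apart than their replicates. Over 44649 features with a mean of at least 50 counts, the median absolute log2 difference in CPM (counts relative to the library's total after TMM adjustment) was 0.11 between the replicates of knockout 1 and 0.14 between those of knockout 2. It was 0.17 to 0.19 for the 4 pairs of libraries across the knockouts, above both replicate pairs. Large differences separated the 2 kinds of pair more sharply. A difference of more than 2-fold was seen in 0.116% of features between replicates of knockout 1 and in 0.206% between those of knockout 2, against 1.45% to 1.57% across the knockouts. The same share was 0.802% to 1.12% between knockout 1 and wild type and 1.34% to 1.67% between knockout 2 and wild type. Thus each library of knockout 2 was about as far from knockout 1 as from wild type by this measure, and the ranges of these 2 kinds of pair overlapped. By the median absolute difference, knockout 2 lay further from wild type (0.189 to 0.233) than from knockout 1 (0.169 to 0.188). That median was 0.159 to 0.181 between knockout 1 and wild type. The wild-type replicates differed by 0.14 in the median and in 0.116% of features by more than 2-fold.

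**Figure D1:**
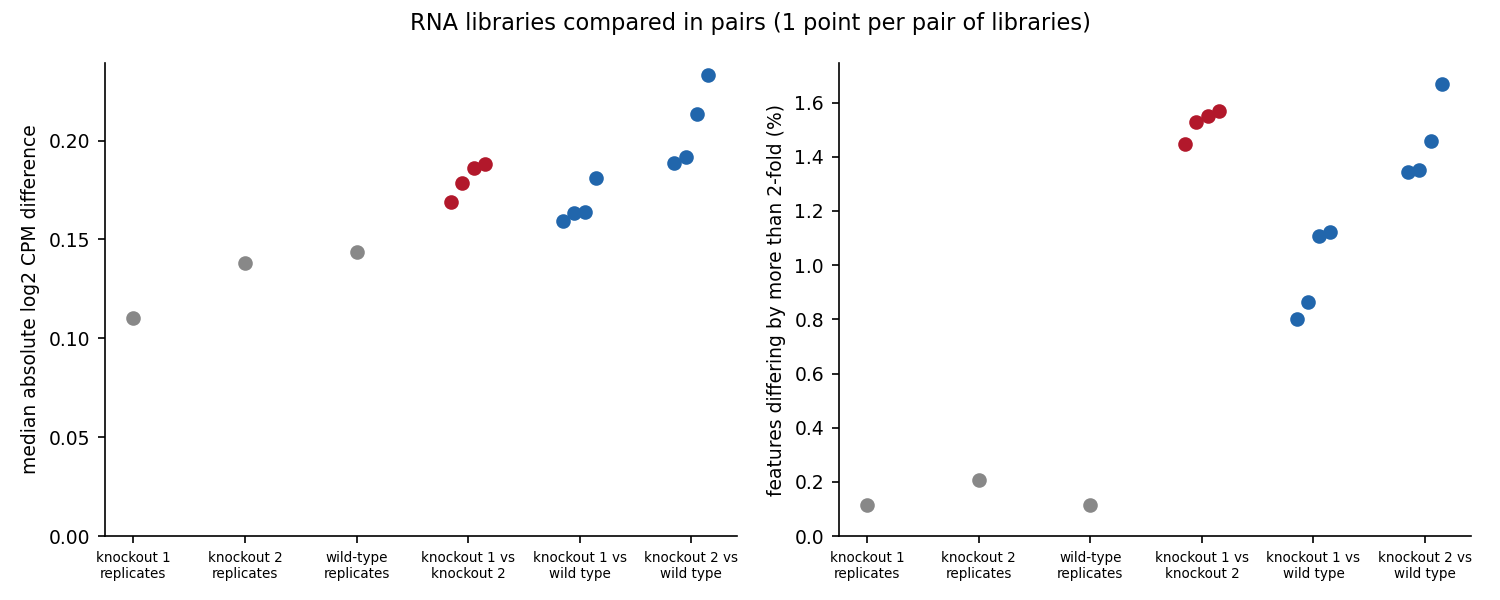
Median absolute log2 CPM difference (left) and percent of features differing by more than 2-fold (right) for every pair of RNA libraries, 1 point per pair, over 44649 features. The 4 pairs across the knockouts (red) lie at 0.17 to 0.19 and at 1.45% to 1.57%, above the replicate pairs (grey), which reach 0.14 and 0.206%; pairs with wild type are blue.

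Across the whole table, 3772 of 57719 features differed in RNA between the knockouts (6.54%, edgeR quasi-likelihood test, adjusted p under 0.05). Of these, 2035 were higher in knockout 1 (3.53%) and 1737 were lower (3.01%). They lay in 1398 of 8304 blocks of 20 lines, 746 blocks with a higher feature and 687 with a lower one, and 35 blocks held calls in both directions. Most differences were modest: the median size of a called difference was 0.61 on the log2 scale, and 954 features (1.65%) passed both the test and 2-fold. Large differences were more often higher in knockout 1, with 680 features past 2-fold against 274 lower. Past 4-fold, 227 were higher and 115 lower. Many of these features were rare. Below a mean of 1 CPM in the knockouts lay 315 of the 680 and 144 of the 274 past 2-fold. Past 4-fold the same held for 187 of the 227 and 86 of the 115. From 10 to 100 CPM, 60 were higher and 15 lower past 2-fold, and 1 was higher and 5 lower past 4-fold. The libraries of the knockouts did not overlap in any of the 3772 called features, nor in 50.8% of all features tested. Among features taken 1 per 20 lines, 783 of 8304 (9.43%) had been called in that fit over all features, 421 higher and 362 lower. A separate fit to those 8304 features alone called 959, 483 higher and 476 lower, nearly without the excess of higher calls. Leaving out replicate 1 or 2 of knockout 1 gave 1584 or 1352 calls, and leaving out replicate 1 or 2 of knockout 2 gave 2438 or 1928, where the lone library was assumed to vary like the other groups.

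The transcript with the deepest loss in knockout 1 was uc065bgj.1 (listed length 180, line 89120), among features with a mean of at least 10 CPM. Its RNA level was 20.8 and 25.2 CPM in the libraries of knockout 2 and 17.1 and 21.3 CPM in wild type, but 0.124 and 0.020 CPM in knockout 1, from 5 and 1 counts. Both libraries of knockout 1 were close to zero, while knockout 2 and wild type overlapped. The difference between the knockouts was -8.38 ± 0.27 (SE) on the log2 scale, with an edgeR adjusted p of 6.91e-16. The size moved with the library left out: it was -10.0005 without replicate 1 of knockout 1 and -7.50 without replicate 2. Ribosome footprints of uc065bgj.1 showed the same loss, with 0 and 1 counts in knockout 1 against 68 and 47 in knockout 2 and 36 in the wild-type library. Of 19 features tested within 20 lines of it, 7 were called lower in knockout 1 and 4 higher, where 3.01% and 3.53% of all features were.

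The next loss, uc010ntm.3 (listed length 305, line 89608), was partial for that feature. Of 18 features tested within 20 lines of it, 12 were called lower in knockout 1 and 0 higher, where 3.01% and 3.53% of all features were. Log2 differences there ran from -8.21 to 0.14, so some features beside it had a deeper loss. Knockout 1 held 1.39 and 0.958 CPM and knockout 2 held 20.7 and 22.4 CPM, and wild type fell between them at 11.7 and 14.5 CPM. The log2 difference of uc010ntm.3 was -4.22 ± 0.16 (SE, edgeR adjusted p = 3.06e-17). Relative to wild type it fell by 3.49 in knockout 1 (edgeR adjusted p = 3.43e-15) and rose by 0.72 in knockout 2 (edgeR adjusted p = 8.84e-05), so the knockouts moved apart from either side. Its footprints differed by less, with 8.61 and 6.88 CPM in knockout 1, 22.4 and 22.6 CPM in knockout 2 and 13.7 CPM in wild type (log2 difference -1.52 ± 0.15 (SE), edgeR adjusted p = 1.31e-13). Another feature 12 lines on had identical RNA counts, so the reads of uc010ntm.3 may be shared with a copy and its level is uncertain.

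Under the same minimum of 10 CPM, the largest difference towards knockout 1 was that of uc003ngz.5 (listed length 117, line 57035). Its RNA reached 22.1 and 15.4 CPM in knockout 1, against 4.32 and 2.88 CPM in knockout 2 and 2.32 and 3.77 CPM in wild type. Knockout 1 stood alone, since the libraries of knockout 2 and wild type overlapped. The log2 difference was 2.38 ± 0.30 (SE, edgeR adjusted p = 0.0064). Footprints of uc003ngz.5 were 37.2 and 32.0 CPM in knockout 1, 13.7 and 10.03 CPM in knockout 2 and 13.2 CPM in wild type (log2 difference 1.51 ± 0.13 (SE), edgeR adjusted p = 3.06e-16).

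Next under that minimum was uc065apc.1 (listed length just over 100, line 88328), with 19.6 and 19.1 CPM in knockout 1 and 5.98 and 5.80 CPM in knockout 2. Wild type lay between, at 7.54 and 8.75 CPM, and no library overlapped with another group. The log2 difference of uc065apc.1 was 1.71 ± 0.12 (SE, edgeR adjusted p = 6.95e-12), from a rise of 1.25 over wild type in knockout 1 (edgeR adjusted p = 3.94e-09) and a fall in knockout 2 (log2 change -0.46, edgeR adjusted p = 0.0103). Its footprints were 27.7 and 27.2 CPM in knockout 1, 7.49 and 9.06 CPM in knockout 2 and 11.97 CPM in wild type, a log2 difference of 1.76 ± 0.14 (SE, edgeR adjusted p = 1.32e-17). All 4 named transcripts passed the test in RNA without any one of the 6 RNA libraries.

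**Figure D2:**
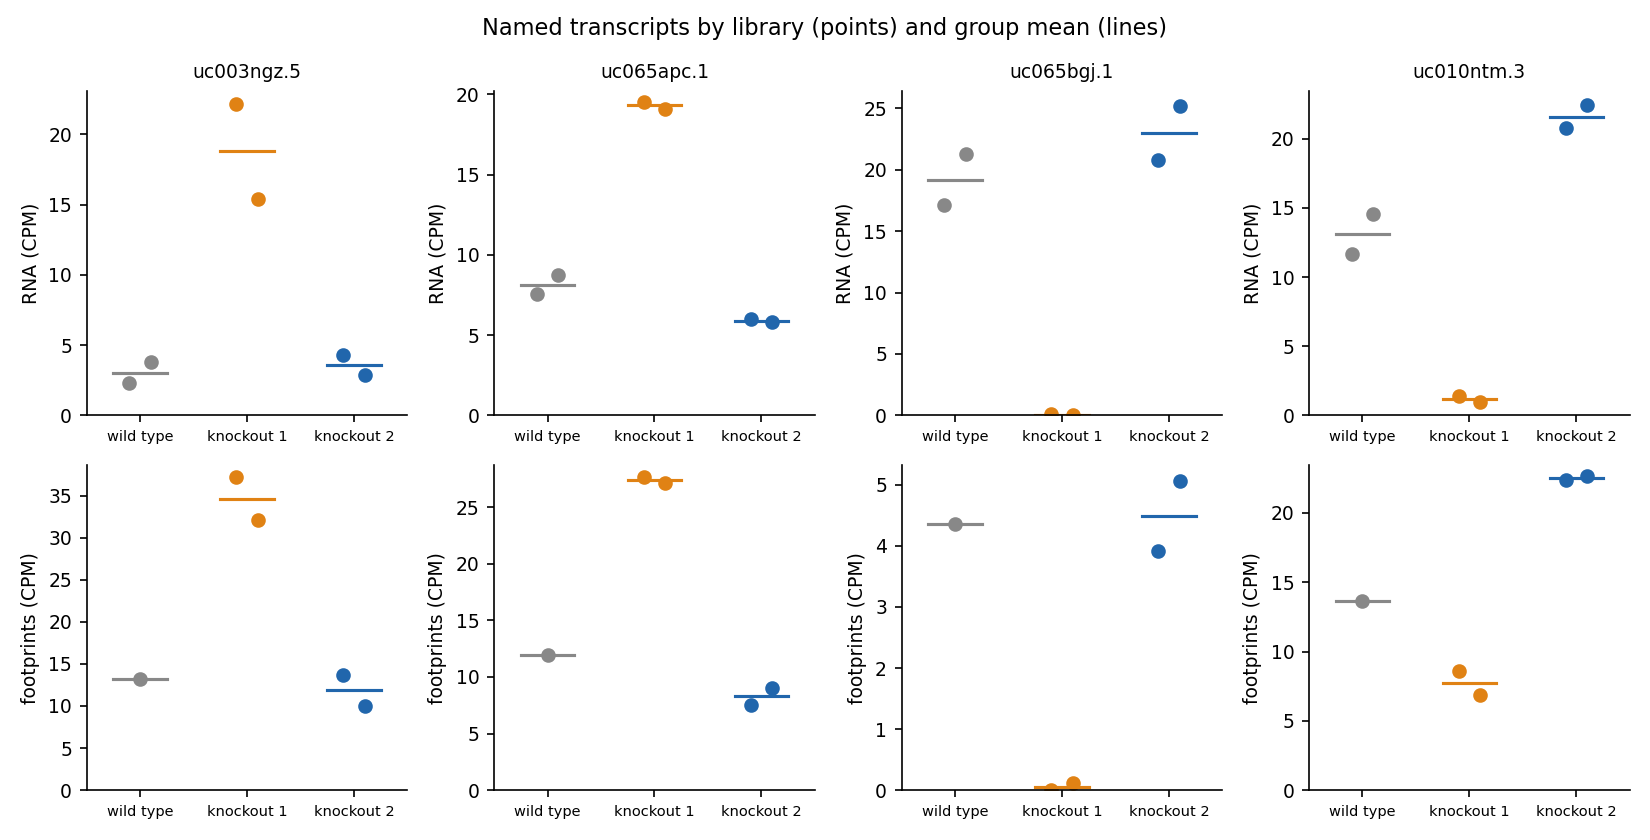
Levels of the 4 named transcripts in RNA (top) and ribosome footprints (bottom), in CPM per library (points) with the group mean (line), for wild type, knockout 1 and knockout 2. The libraries of knockout 1 do not overlap with those of knockout 2 in any panel; footprints of wild type rest on 1 library.

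Beyond these, the 20 strongest differences in each direction at 10 CPM or more, taken at least 100 lines apart, gave a picture of single loci. In the libraries not used for that ranking, the footprints, all 40 had a difference of the same sign as in RNA. The same sign was seen in 61.8% of all features tested in both and in 88.1% of those called in RNA. Of the 20 higher loci 18 passed the footprint test, and of the 20 lower ones 17 did (8.32% of all features tested in footprints did, 4.54% as higher in knockout 1). The 20 higher loci ranged from 0.88 to 2.38 on the log2 scale, and the 20 lower loci from -0.73 to -8.38. Wild type lay between the knockouts in 16 of the 20 higher and 16 of the 20 lower loci. It did so in 67.1% of called features and in 31.8% of all features tested. Of the 20 higher loci 8 lay in the first of the table stretches described further on, and none of the lower ones did. At line 88831 (listed length 2716) the RNA was 8.43 and 7.90 CPM in knockout 1, 67.3 and 61.3 CPM in knockout 2 and 32.6 and 25.1 CPM in wild type, again with wild type between. At line 48947 (listed length 325) it was 5.14 and 5.09 CPM in knockout 1, 17.7 and 17.8 CPM in knockout 2 and 13.6 and 13.7 CPM in wild type. The replicates at that locus were nearly equal and all 3 genotypes were separate.

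Around uc003ngz.5 many neighbours stood higher in knockout 1. A group of 62 features within 200 lines of it with a mean of at least 10 CPM was chosen after its values were seen. That mean was over the 4 knockout libraries compared here, so a feature could enter through high values in 1 knockout alone. The counts that follow are therefore a description. Of the 62, 54 had a positive difference and the median was 1.28 on the log2 scale. The median difference from wild type was 1.27 in knockout 1 and -0.01 in knockout 2. The edgeR test was passed by 8 of the 62 as higher and by 0 as lower, where 3.53% of all features passed as higher. Without that minimum, 27 features were tested within 20 lines of uc003ngz.5. Of these, 7 were called higher and 2 lower, with differences down to -1.08. Replicates of each knockout were themselves unequal here, replicate 1 exceeding replicate 2 by a median of 0.47 in knockout 1 and 0.43 in knockout 2, against -0.01 in wild type. With the replicate number as a block, 28 of the 62 passed as higher. In footprints 54 of 61 were higher in knockout 1, with a median of 0.92, and 43 passed the test as higher, where 4.54% of all features tested in footprints did. At line 57220 (listed length 117) the RNA was 416 and 306 CPM in knockout 1, 149 and 109 CPM in knockout 2 and 144 and 124 CPM in wild type. What part the replicate difference has in this group's values was not tested.

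In RNA, some transcripts were close to absent in 1 knockout and plainly present in the other. Taking a mean of 1 CPM or more in one and a sum of no more than 3 counts in the other, 7 features in 5 blocks were nearly absent in knockout 1 and 17 features in 9 blocks in knockout 2. Wild type had at least 1 CPM in 4 of the 7 and in 10 of the 17. Of the 7, 3 stood at lines 89112, 89122 and 89123, beside uc065bgj.1. At line 89123 (listed length 519) knockout 1 had 0 counts in both libraries, knockout 2 had 3.51 and 3.61 CPM and wild type 2.86 and 4.37 CPM, a level at least 107-fold lower in knockout 1 (against a floor of 3 counts over the group). In knockout 2, line 163033 (listed length 531) had 0 counts in both libraries, against 1.54 and 1.38 CPM in knockout 1 and 5.77 and 6.13 CPM in wild type, at least 42.9-fold lower than in knockout 1. Knockout 1 also had less than wild type at that line. Footprint counts, summed over both libraries and not adjusted for depth, were 0 in knockout 1 and 68 in knockout 2 at line 89123. At line 163033 they were 6 in knockout 2 and 18 in knockout 1, so footprints were not absent there. At line 163043, also nearly absent in the RNA of knockout 2, they were 6 in knockout 2 and 4 in knockout 1.

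Other features that were nearly absent in knockout 2 were low in wild type too. At line 89458 (listed length 309) knockout 1 had 10.6 and 11.6 CPM, while knockout 2 had 1 and 0 counts and wild type 0.076 and 0.172 CPM. The RNA ratio of knockout 1 to knockout 2 was 984, with an exact 95% interval for counting error of 176 to 38917. Summed footprint counts at that line were 297 in knockout 1 and 16 in knockout 2, so knockout 2 kept some footprints. Line 38187 (listed length 322) had 2.54 and 2.63 CPM in knockout 1, 0 counts in both libraries of knockout 2 and 0.184 and 0.192 CPM in wild type, which is at least 76.0-fold lower in knockout 2. Summed footprint counts at line 38187 were 29 in knockout 1 and 0 in knockout 2. At these 2 lines knockout 1 was the line whose level lay away from wild type.

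Set against wild type, knockout 2 was the line that more often lay away from it. Of the 3772 features that differed between the knockouts, 1943 (51.5%) also passed the test between knockout 2 and wild type and not between knockout 1 and wild type, and 551 (14.6%) did so in knockout 1 alone. Both knockouts passed in 186 features, 82 on the same side of wild type and 104 on opposite sides, and 1092 (29.0%) passed in neither. Over all features tested, 12.3% passed between knockout 2 and wild type and 4.26% between knockout 1 and wild type, and both comparisons share the wild-type libraries. The 104 features on opposite sides had a median absolute log2 difference of 1.69 between the knockouts, against 0.59 where knockout 2 alone passed, 0.74 where knockout 1 alone did and 0.53 where neither did. Among the 954 features past 2-fold, 456 passed in knockout 2 alone and 190 in knockout 1 alone. Of those 456, 374 were higher in knockout 1 than in knockout 2, whereas the 190 were split evenly, 95 higher and 95 lower. Over all sizes, 1084 of the 1943 were higher and 859 lower. Outside the table stretches described further on, 722 were higher and 855 lower, so the excess of higher calls was not seen there. The counts past 2-fold were not repeated outside the stretches.

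**Figure D3:**
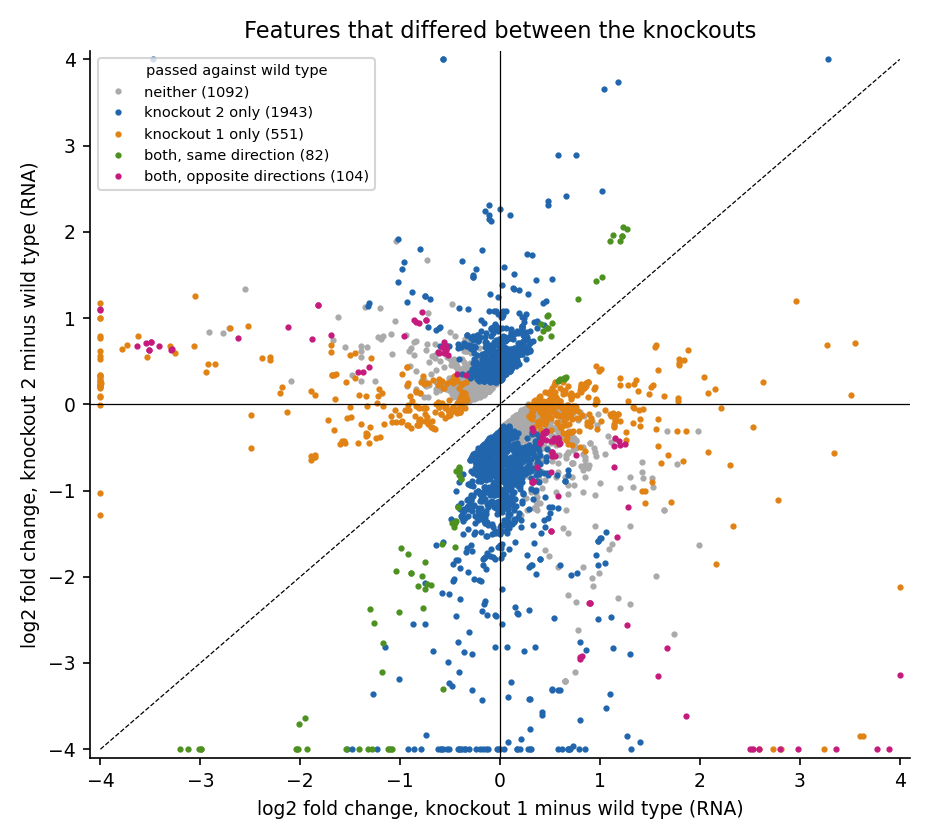
RNA log2 fold change against wild type in knockout 1 (x axis) and knockout 2 (y axis) for the 3772 features that differed between the knockouts, coloured by which comparison with wild type passed the test. Blue points (knockout 2 alone, 1943) run along the vertical axis and orange points (knockout 1 alone, 551) along the horizontal one; both axes share the wild-type libraries, points beyond 4 (107 features) are drawn at the edge, and the dashed line marks equal values.

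In 2532 of the 3772 called features (67.1%) the wild-type mean lay between the knockout means, against 31.8% of all features tested. The called features were chosen for knockout means that lie apart. This by itself places wild type between them more often, so the share is a description. Of the 2532, 1616 were nearer to knockout 1 and 916 nearer to knockout 2. Over all features tested these numbers were 10213 and 8141. Wild type lay below both knockouts in 546 called features (14.5%) and above both in 694 (18.4%), against 34.0% and 34.2% of all features tested. With any one of the 6 RNA libraries left out, features passing in knockout 2 alone outnumbered those passing in knockout 1 alone. The numbers themselves moved: without replicate 1 or 2 of knockout 1 they were 954 and 218 or 761 and 247, and without replicate 1 or 2 of knockout 2 they were 1257 and 473 or 930 and 416, while the number passing in neither was 2911 and 2005 without replicate 1 or 2 of wild type.

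A part of the difference ran along the table rather than sitting in single loci. With 1 feature kept per 20 lines (the one with the highest count), the running median of the difference over 41 features had 5th and 95th percentiles of -0.11 and 0.10, but reached 0.89 over 1 continuous stretch from line 85169 to line 87273. The cut-offs that delimit it (a running median above 0.15 over at least 40 features) were chosen after its values were seen, so it is given as a description. Of 104 such features in the stretch, 99 were higher in knockout 1, and 89 passed the edgeR test as higher and 0 as lower, where 5.07% of all features taken 1 per 20 lines passed as higher. The median difference was 0.84 on the log2 scale, a 1.78-fold higher level in knockout 1, with quartiles of 0.65 and 1.03. The edges were abrupt. The 20 features before it had a median of -0.09 and its first 20 a median of 0.72, and the last 20 had 0.86 and the 20 after it -0.05.

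Knockout 2 was the line that lay away from wild type in this stretch. Relative to the wild-type mean, the median over its 104 features was -0.81 and -0.78 in the libraries of knockout 2 and 0.01 and 0.02 in those of knockout 1. Against wild type 89 of the 104 were lower in knockout 2 and 0 higher, where 9.87% of all features taken 1 per 20 lines were lower. In knockout 1, 7 of the 104 were higher and 8 lower. Outside both stretches, 241 of 8145 such features were higher and 263 lower in knockout 1. In footprints, which did not enter the choice, 93 of 97 features had a higher level in knockout 1, with a median of 0.85. The footprint test was passed by 71 as higher and 0 as lower. Outside both stretches 3657 of 7562 features had a higher footprint level in knockout 1, and 343 passed as higher and 370 as lower. The stretch held 1.24% of the features tested and 22.9% of all calls higher in knockout 1 (466 features), with 3 calls lower. At line 85693 (listed length 293) RNA was 21.8 and 21.9 CPM in knockout 1, 8.01 and 8.15 CPM in knockout 2 and 21.4 and 20.2 CPM in wild type. Line 85884 (listed length 595) differed from this pattern, since both knockouts lay below wild type there (26.3 and 26.6 CPM), with 19.96 and 18.7 CPM in knockout 1 and 8.66 and 8.13 CPM in knockout 2.

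A second, shallower stretch lay from line 172085 to line 173237, and knockout 1 lay further from wild type there than knockout 2. The step at its start was smaller than in the first stretch. The 20 features before it had a median difference of 0.10 and its first 20 had 0.20. The last 20 had 0.28 and the 20 after it 0.04. The 55 features of the second stretch had a median difference of 0.27 (1.21-fold), with 14 higher calls and 1 lower call. Of all features taken 1 per 20 lines, 5.07% were called higher. The medians relative to wild type were 0.34 and 0.35 in the libraries of knockout 1 and 0.08 in both of knockout 2, and the wild-type replicates differed by -0.02. In knockout 1, 27 of the 55 were higher than wild type and 0 lower, where 3.31% of all features taken 1 per 20 lines were higher. In knockout 2, 10 of the 55 were higher and 1 lower, against 713 and 730 of the 8145 such features outside both stretches. Footprints were higher in knockout 1 for 43 of 53 features (median 0.22), and 8 passed the test as higher, where 4.54% of all features tested in footprints did. No stretch of this length with a lower level in knockout 1 met the same cut-offs. Without both stretches 3045 features differed, 1487 higher and 1558 lower in knockout 1, so that the excess of higher calls was no longer seen.

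**Figure D4:**
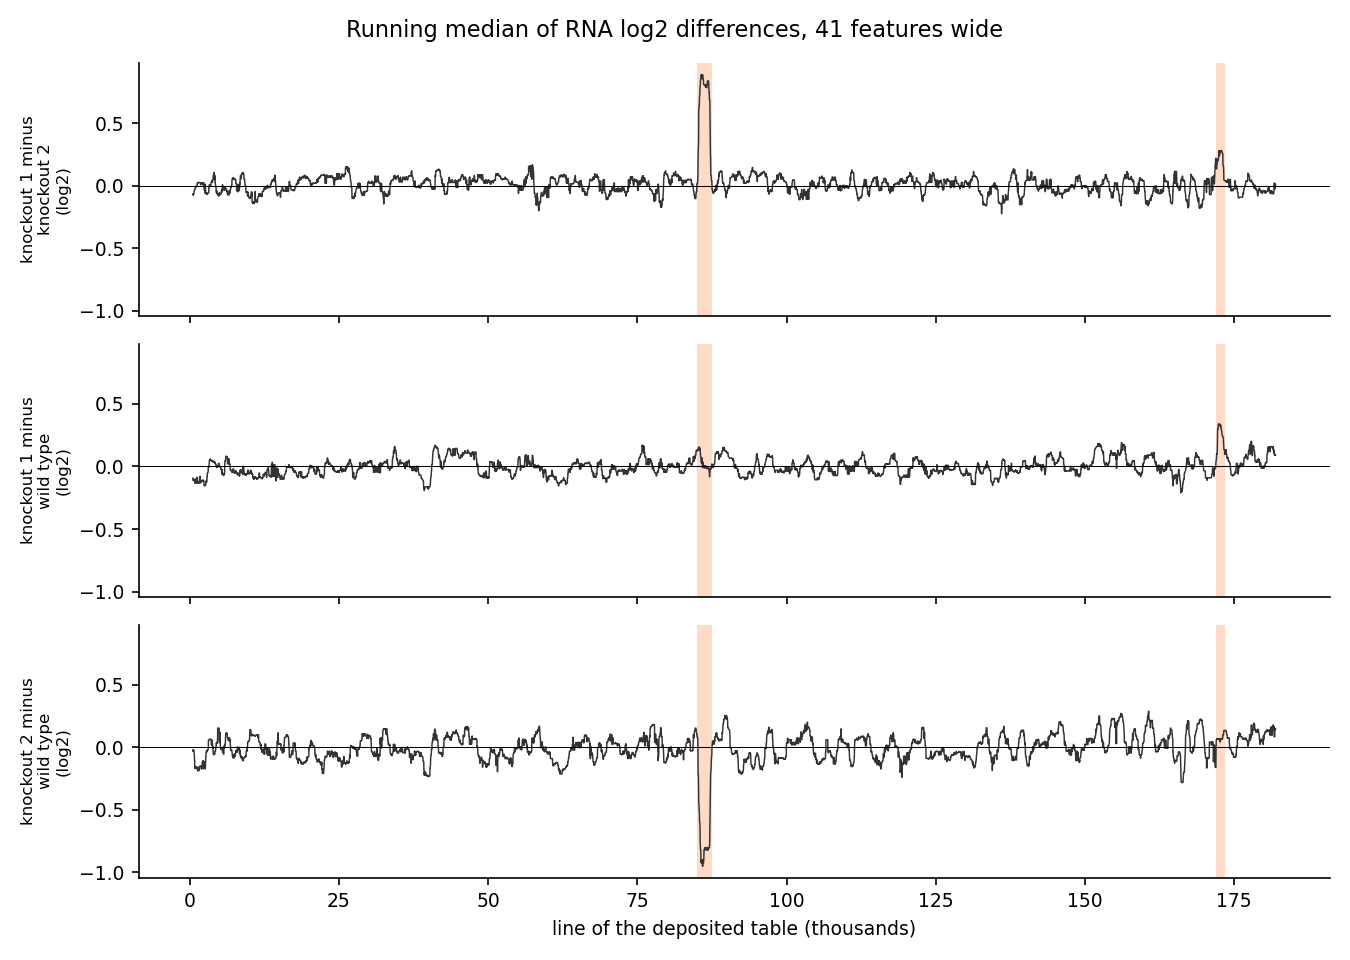
Running median over 41 features (1 per 20 lines) of the RNA log2 difference along the deposited table, for knockout 1 minus knockout 2 (top), knockout 1 minus wild type (middle) and knockout 2 minus wild type (bottom); shading marks the 2 stretches. The first stretch appears as a dip in knockout 2 (median -0.82 against wild type) and the second as a rise in knockout 1 (median 0.34), while shorter or smaller excursions occur elsewhere, down to -0.22 in the top panel over full windows.

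Transcripts with a long listed length were more often higher in knockout 1. In the class over 800, 530 of 6732 features were higher and 161 lower (10.3% called), with a median log2 difference of 0.08, against 0.00 over all features. In the class over 400 and up to 800, 606 were higher and 420 lower (median 0.02). In the 3 shorter classes lower calls prevailed, with 404 higher and 516 lower over 200 and up to 400, 359 and 468 over 100 and up to 200, and 136 and 172 for lengths up to 100, and their medians were all -0.02. Both knockouts had their lowest median against wild type in the class over 800, -0.07 in knockout 1 and -0.15 in knockout 2. The excess of higher calls in the 2 longest classes held without any one of the 6 RNA libraries, with 3.01% to 11.2% of features over 800 higher and 0.686% to 3.45% lower. The excess of lower calls did not. In the class over 100 and up to 200, 1.40% of features were higher and 0.856% lower without replicate 1 of knockout 1, and 1.37% and 0.652% without replicate 2. The shares were 1.89% and 1.63% without replicate 1 of knockout 2, and 1.45% and 1.39% without replicate 2. In each of the other two shorter classes, higher calls outnumbered lower ones in 2 of the 6 fits with a library left out.

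Abundance set how small a difference could be called. Below 1 CPM, 461 of 13023 features were called and the smallest called difference was 0.97 on the log2 scale, whereas from 10 to 100 CPM 1573 of 16337 were called, down to 0.27. Smaller differences of rare transcripts were not detectable at this depth. Direction also varied with abundance. Below 1 CPM 315 features were higher in knockout 1 and 146 lower, and over 100 CPM 41 were higher and 173 lower (15.6% of 1370 called), with a median difference of -0.07 in that class.

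The footprint libraries gave the same direction for most RNA differences. Of the 3240 RNA-called features tested in footprints, 2856 (88.1%) had a footprint difference of the same sign, compared with 61.8% of the 44089 features tested in both. The footprint test was passed in the same direction by 1167 of the 3240 (36.0%) and in the opposite direction by 16. Over the 44089 features tested in both, 2966 (6.73%) passed in the same direction and 708 in the opposite one. Among features past 2-fold in RNA, 516 of 525 had the same sign, 334 passed and 0 passed in the opposite direction. Where knockout 1 alone lay away from wild type in RNA, 457 of 470 features (97.2%) had the same sign in footprints, against 1493 of 1714 (87.1%) where knockout 2 alone did. Features called in RNA that passed in neither comparison with wild type still had the same sign in 762 of 910 cases. The share of the same sign was 83.6% to 86.7% without any one of the 4 knockout footprint libraries, and the count passing in the same direction was 757 without replicate 1 of knockout 1 and 688 without replicate 1 of knockout 2.

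**Figure D5:**
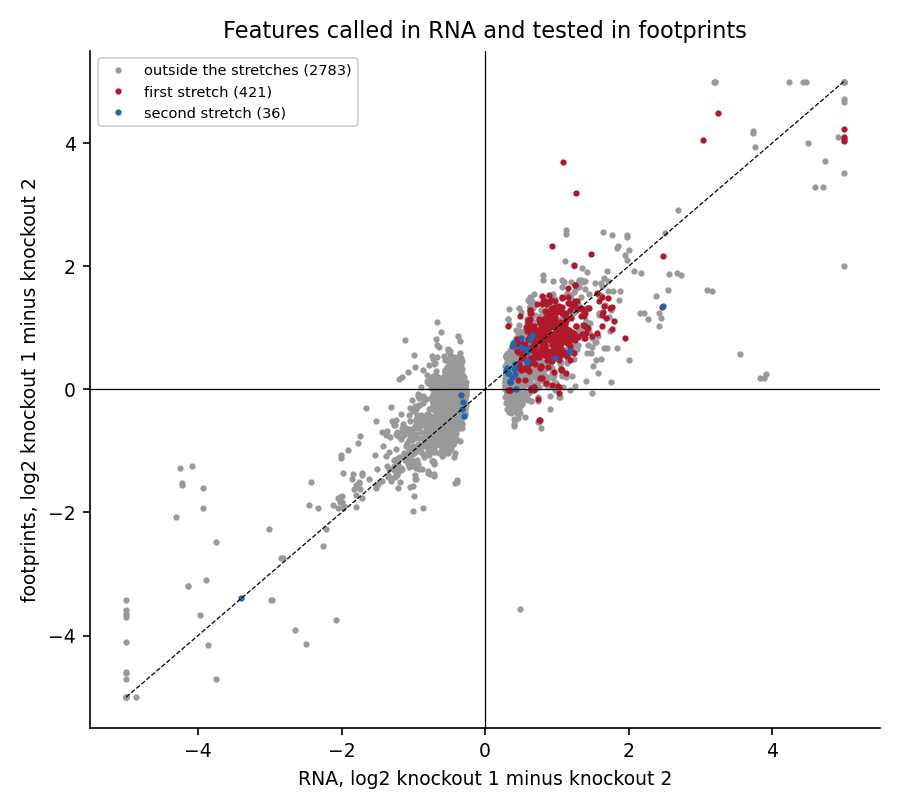
Log2 difference of knockout 1 minus knockout 2 in RNA (x axis) and in ribosome footprints (y axis) for the 3240 features called in RNA and tested in footprints, with the 2 table stretches in colour; values beyond 5 (34 features) are drawn at the edge and the dashed line marks equal values. Most points (2856) lie at the upper right and lower left, and the first stretch (red) forms a compact cloud in the upper right.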

How the data were processed

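The deposited files hold raw counts per transcript, not normalised by the authors, with a listed length. The listed lengths are another deposited column, of no stated unit. TopHat2 2.0.9, Bowtie2 2.1.0, CASAVA 1.8 and the build hg38 are named, without a role, per the submitters' processing notes. The RNA kit was stranded, per the labels' protocols; the counter and its strand setting are not given in the sources used here, so overlapping and antisense transcripts cannot be told apart. Rows with identical counts in all 11 libraries were merged (66016 features). Features needed 10 counts in 2 RNA libraries. edgeR 4.0.16 in R 4.3.3 (TMM, robust quasi-likelihood test, two-sided, Benjamini-Hochberg over all features tested, threshold 0.05) was fitted to all 6 RNA libraries, and to the footprints alone. The SE is the log2 difference over the square root of F. Checked alternatives included DESeq2 1.42.0 and left-out libraries. Scripts were tested on simulated data.

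The members, lists and tests were chosen with earlier results of these data known. Named transcripts are the first 2 in each direction by size of the log2 difference, called, with at least 10 CPM on average in the knockouts, groups not overlapping and over 100 lines apart. Depth is given by the totals per library, and intervals cover counting error only. No sequences are shown.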

Additional observations from a re-analysis of the deposited data

Results flagged for a closer look

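The knockouts lay on opposite sides of wild type, each beyond the threshold against it, in 104 of the features that differed between them. Both named transcripts of this kind differed by a test of the difference itself, uc065apc.1 by a log2 value of 1.71 and uc010ntm.3 by -4.22. Both comparisons with wild type share its libraries.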

How the results depend on the processing

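The 4 named transcripts kept their direction and passed the test under each alternative run for them. RLE size factors, no count filter, unmerged rows and DESeq2 (2611 calls) moved no count of calls by over 1.5 times, and the fit to the 4 knockout libraries alone gave 5254. A mean count of at least 50 left 534 features past 2-fold, and a separate fit to 1 feature per 20 lines, which tests fewer features, gave 959 calls (483 higher, 476 lower, 137 past 2-fold). Same-numbered libraries of the knockouts deviated together with r = 0.07 across features. Against wild type r was -0.09 for knockout 1 and 0.15 for knockout 2. The numbers were not taken to pair the libraries, though around uc003ngz.5 replicate 1 exceeded replicate 2 in both knockouts. The replicate block gave 4876 calls, 3770 of them shared with the fit without it, with 158 features on the same side of wild type and 28 in the group around uc003ngz.5. Leaving out 1 RNA library gave 1352 to 5366 calls, 930 to 2763 higher and 422 to 2603 lower. Features away from wild type were 218 to 593 in knockout 1 alone, 761 to 2496 in knockout 2 alone, 18 to 189 in both on the same side, 40 to 83 on opposite sides and 283 to 2911 in neither. By length class, the percent called higher and lower was 0.489 to 1.802 and 0.381 to 2.55 (up to 100; 2.58 lower with a mean count of at least 50), 1.37 to 2.99 and 0.652 to 4.56 (to 200), 1.39 to 4.28 and 0.999 to 6.23 (to 400), 2.38 to 7.03 and 0.913 to 5.31 (to 800, median 0.0069 to 0.028) and 3.01 to 11.2 and 0.686 to 3.45 (over 800). With a mean count of at least 10 the distance averaged 0.208 across knockouts and 0.148 between replicates. Features nearly absent numbered 25 and 41 (knockout 1 and knockout 2) at 0.5 CPM in the other line and 13 and 27 at up to 10 counts. A running median over 81 features gave 0.783 and 0.223 for the stretches, and one over 21 gave 0.255 for the second. Footprint calls in the RNA direction were 688 to 1032 without 1 footprint library (757 without replicate 1 of knockout 1, 688 without replicate 1 of knockout 2). The cause of these shifts was not tested. Dropping the stretches and the block for the group around uc003ngz.5 were added after the data were seen.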
